A study of Mus musculus with 10 samples.

Results

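The Krüppel-like factors are transcription factors that bind GC-rich and CACCC-type DNA through 3 zinc fingers at their carboxyl end. In blood and vessel cells they are known for setting quiescence, trafficking and inflammatory responses, and several are transcribed quickly after a stimulus. The genes described here are Klf2, Klf3, Klf4, Klf6, Klf7, Klf10 and Klf13, which were chosen by name, 7 of the 19938 genes with a probe set that names 1 gene. Each was read by 1 such probe set (10572800 for Klf2, 10522051 for Klf3, 10513008 for Klf4, 10403352 for Klf6, 10355141 for Klf7, 10428302 for Klf10 and 10564290 for Klf13), and all 7 passed the filter on low signal.

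RNA came from bone marrow cells of female C57bl/6 mice 10 weeks old, enriched for neutrophils on a Percoll density gradient after lysis of red cells, and was measured on 10 Affymetrix arrays. The 4 groups were unstimulated wild type (3 arrays), unstimulated lcn2 knockout (3 arrays), wild type treated with fMLP (2 arrays) and lcn2 knockout treated with fMLP (2 arrays). fMLP is a formylated peptide that attracts and activates neutrophils, used here for 20 minutes at a concentration of 10 micromolar and a temperature of 37 degrees, and lcn2 encodes lipocalin 2, a granule protein that binds bacterial iron carriers. The study asks what lipocalin 2 does in resting and stimulated neutrophils. The labels do not describe the knockout allele, do not say whether replicates were separate animals, and do not say whether unstimulated cells were also held at 37 degrees, so that p-values measure the spread between these samples, which may be technical.

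The arrays fell into 2 sets by the spread of their values. Unstimulated replicates 1 and 2 of both genotypes (array set 1, 4 arrays) had an interquartile range of 1.64 to 1.68 on the log2 scale, against 2.47 to 2.59 on unstimulated replicate 3 of both genotypes and the 4 fMLP arrays (array set 2, 6 arrays). All fMLP arrays lie in set 2, so each was first compared with unstimulated replicate 3 of its own genotype. Lcn2 stood at 13.88 to 14.16 on the wild type arrays and at 8.09 to 9.60 on the knockout arrays. The 13 neutrophil markers had a mean signal of 12.91 to 13.50 on set 2. The array of fMLP-treated knockout cells, replicate 2, stood apart. Its mean over 14 neuron markers was 10.94, against 7.35 to 7.51 on the other arrays of set 2, and all 14 were higher there than on the other fMLP arrays. Xist, which is transcribed from the inactive X chromosome, was at 6.88 to 6.94 on unstimulated replicate 3 and at 10.97 to 11.12 on 3 fMLP arrays, with 9.83 on fMLP knockout replicate 2. The Y-linked gene Eif2s3y was at 9.59 to 9.83 on unstimulated replicate 3 and at 5.36 to 6.48 on the fMLP arrays, although all samples are labelled female. Within set 2, fMLP therefore cannot be told apart from whatever separates these arrays in their sex-linked genes.

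The starts of Klf2 and Klf6, the 2 genes with the highest differences after fMLP, are shown first. The sequences are the 250 bases before the annotated start, 5′ to 3′, from RefSeq on GRCm38.p6, where 6 of the 7 genes matched the promoter table. Klf2 lies at chr8:72318812-72319061 on the plus strand and Klf6 at chr13:5861239-5861488 on the plus strand. Capitals mark GC boxes (GGGCGG on either strand) and, in Klf2, the single match to the MEF2 site, which is bound by the MEF2 factors of the ERK5 pathway known to act on Klf2.
Klf2: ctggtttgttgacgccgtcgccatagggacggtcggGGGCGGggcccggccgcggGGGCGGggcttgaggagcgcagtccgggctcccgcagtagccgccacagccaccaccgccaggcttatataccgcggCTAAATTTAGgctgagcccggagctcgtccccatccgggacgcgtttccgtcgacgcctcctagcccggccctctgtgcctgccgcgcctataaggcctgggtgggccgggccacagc
Klf6: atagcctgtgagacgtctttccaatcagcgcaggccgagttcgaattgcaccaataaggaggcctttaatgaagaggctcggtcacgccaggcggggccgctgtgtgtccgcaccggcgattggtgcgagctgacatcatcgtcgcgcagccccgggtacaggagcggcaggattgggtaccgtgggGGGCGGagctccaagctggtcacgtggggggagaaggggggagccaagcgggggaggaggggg

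The 6 starts were rich in G and C, at 59.2% to 78.4%, against a median of 52.4% over all 32851 promoters of the table. GC boxes stood in 6 of 6, against 32.7% of all promoters, and CACCC boxes (CACCC, either strand) in 4 of 6, against 52.0%. The short cAMP response element (TGACG, either strand) stood in 3 of 6, in Klf2, Klf4 and Klf13, against 17.8%. The full palindrome TGACGTCA stood in 0 of 6 (1.55% of all promoters), as did the AP-1 site TGANTCA (6.75%) and the CArG box of serum response factor (1.47%). The MEF2 match was in Klf2 only, 118 bases before its start, against 2.92% of all promoters. Matches to the short element include those within the palindrome, and GC boxes and CACCC boxes may overlap. These counts describe letters in a window and were not tested.

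On 3 of the 4 fMLP arrays Klf2 and Klf6 stood above unstimulated cells, and on fMLP knockout replicate 2 both stood slightly below. Klf3, Klf4, Klf10 and Klf13 lay within 0.27 of unstimulated replicate 3 on those 3 arrays, and lower on fMLP knockout replicate 2. Klf7 was the 1 gene that was higher on that array. With all arrays in the fit, limma called 0 of the 7 genes for fMLP averaged over genotype (0 also at an unadjusted p below 0.05), where 0.341% of all 14070 tested genes were called (0.149% higher and 0.192% lower). When fMLP knockout replicate 2 was left out, limma called 2 of 7, Klf2 and Klf6, both higher, where 10.1% of all genes were called (6.36% higher and 3.79% lower). Within wild type 0 of 7 were called with all arrays, where 0.0782% of all genes were called (0.0426% higher and 0.0355% lower), and within knockout cells 0 of 7, where 0.0853% were called (0.0284% higher and 0.0569% lower). Leaving out that array, 1 of 7 was called in each genotype, Klf2, where the shares of all genes were 5.15% in wild type (3.47% higher and 1.68% lower) and 2.15% in knockout cells (1.39% higher and 0.76% lower).

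**Figure D1:**
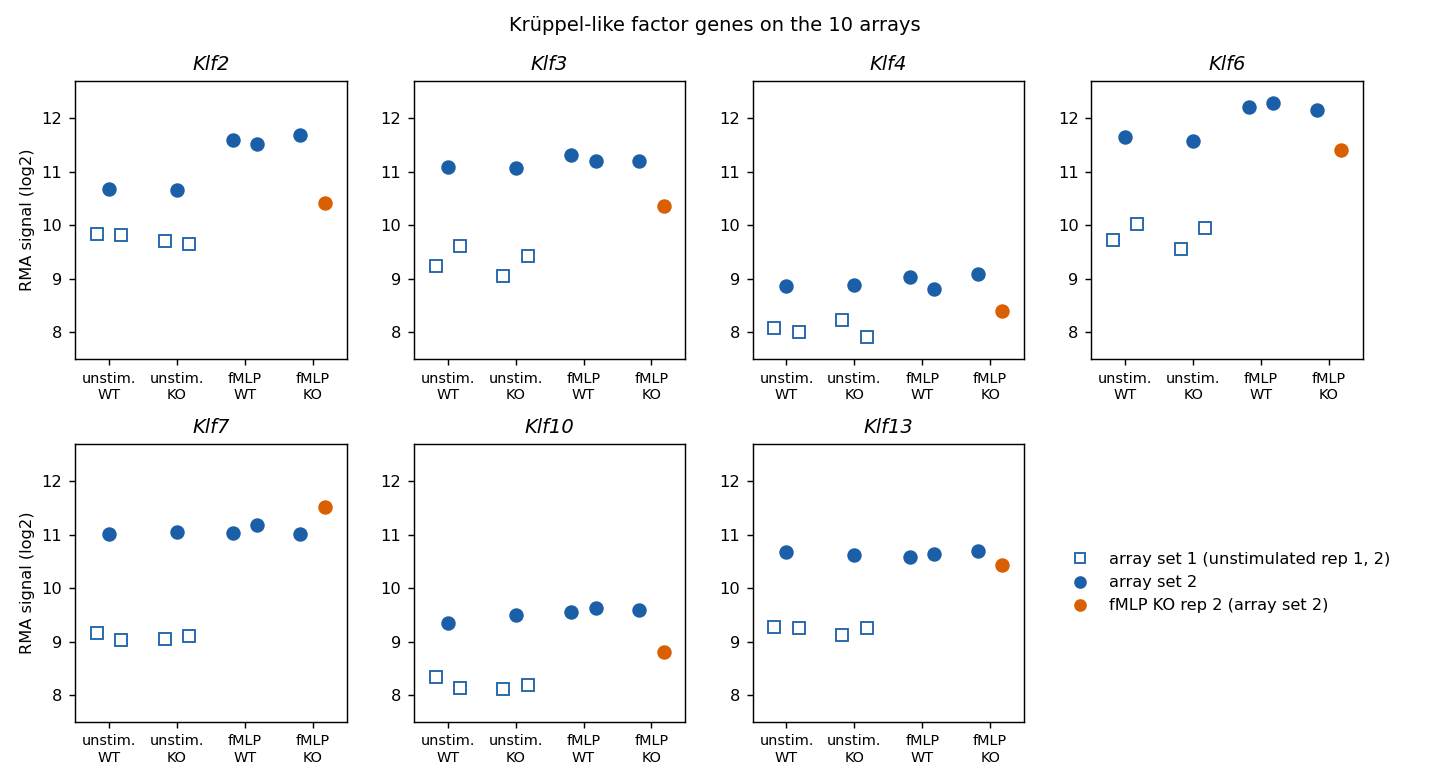
RMA signal (log2, vertical axis) of the 7 genes on each array, by group; squares are array set 1, circles array set 2, and the orange circle is fMLP knockout (KO) replicate 2. In set 2, Klf2 lies at 10.66 and 10.68 without fMLP and at 11.52 to 11.69 on 3 fMLP arrays, and all 7 genes lie lower on set 1 than on unstimulated replicate 3; levels of different genes are not comparable.

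Klf2 encodes a factor that keeps lymphocytes quiescent, guides their exit from lymphoid organs through S1pr1, and restrains inflammatory gene expression in myeloid and endothelial cells. Its log2 signal was 10.68 on unstimulated wild type replicate 3 and 11.59 and 11.52 on wild type fMLP replicates 1 and 2. In knockout cells it was 10.66 on unstimulated replicate 3, 11.69 on fMLP replicate 1 and 10.41 on fMLP replicate 2. The fMLP arrays other than knockout replicate 2 were thus 0.84 to 1.04 above the unstimulated array of their genotype on the log2 scale, a fold of 1.79 to 2.05, and did not overlap with the unstimulated arrays of either set. On fMLP knockout replicate 2 the difference was -0.25.

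For Klf2 the fitted difference averaged over genotype was 0.63 (SE 0.29, 95% interval -0.03 to 1.30, limma adjusted p = 0.369). With that array left out it rose by 0.95 (SE 0.09, 95% interval 0.75 to 1.15, limma adjusted p = 0.000298). The exact two-sided permutation test of the 4 fMLP arrays against the 2 unstimulated arrays of the set gave p = 0.400 for Klf2. The smallest p this exact permutation test allows is 0.0667. Without fMLP knockout replicate 2, the exact two-sided permutation test of 3 arrays against 2 gave p = 0.1 for Klf2 and Klf6. That is the smallest value the permutation test allows for 3 arrays against 2, so it could not fall below 0.05. By genotype, Klf2 differed by 0.83 (SE 0.36, limma adjusted p = 0.620) in wild type and by 0.44 (SE 0.36, limma adjusted p = 0.563) in knockout cells. With fMLP knockout replicate 2 left out it rose in both, by 0.83 (SE 0.10, limma adjusted p = 0.00232) in wild type and by 1.08 (SE 0.12, limma adjusted p = 0.00258) in knockout cells, the latter with 1 fMLP array. The wild type difference is the same number in both fits, since that array enters it only through the spread pooled over the groups. The median residual SD over all tested genes was 0.163 with the array and 0.112 without it. Klf2 changed more than that, with a wild type SE of 0.36 with the array and 0.10 without it. Leaving out replicate 1 of that pair in place of replicate 2 gave the same wild type values for Klf2 (0.83, limma adjusted p = 0.00232), since either removal takes the spread of the pair out of the fit. The difference averaged over genotype was then 0.31 for Klf2 (limma adjusted p = 0.0246).

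Klf6 encodes a widely expressed activator that is induced early after many stimuli and promotes inflammatory gene expression in macrophages. Its log2 signal was 11.66 on unstimulated wild type replicate 3 and 12.22 and 12.29 on the wild type fMLP arrays. In knockout cells it was 11.58 on unstimulated replicate 3, 12.16 on fMLP replicate 1 and 11.41 on fMLP replicate 2. The 3 fMLP arrays again stood apart from the unstimulated ones, by 0.56 to 0.63 on the log2 scale or a fold of 1.47 to 1.55, and fMLP knockout replicate 2 was at -0.18.

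For Klf6 the fitted difference averaged over genotype was 0.40 (SE 0.21, 95% interval -0.09 to 0.88, limma adjusted p = 0.440). When that array was left out it rose by 0.58 (SE 0.14, 95% interval 0.28 to 0.88, limma adjusted p = 0.0245). The difference was then 0.58 in wild type (limma adjusted p = 0.0647) and 0.59 in knockout cells (limma adjusted p = 0.140), of similar size in each genotype but short of the threshold. With array weights and all arrays kept, Klf6 rose in wild type by 0.59 (limma adjusted p = 0.00113), in a fit that called 26.5% of all genes.

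**Figure D2:**
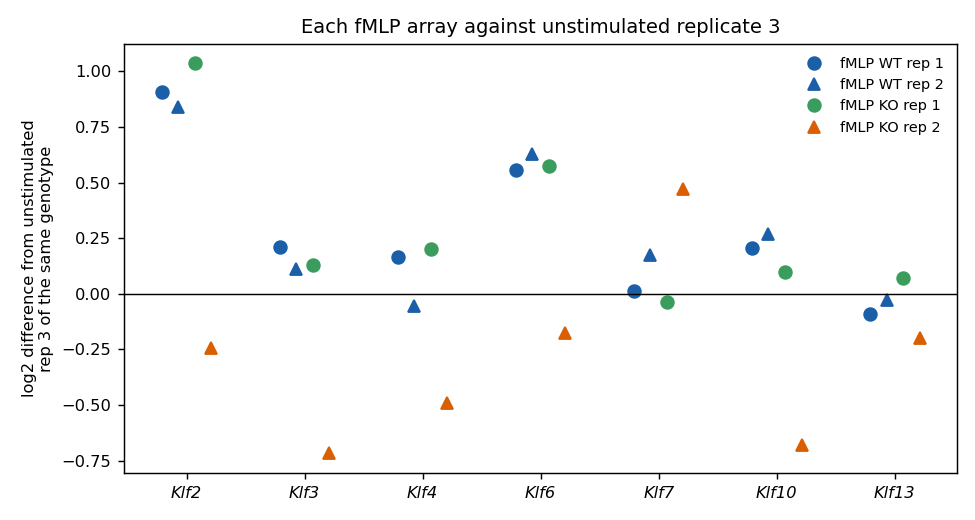
Log2 difference of each fMLP array from unstimulated replicate 3 of its own genotype (vertical axis) for the 7 genes, with 1 point per array (WT, wild type; KO, knockout). Klf2 lies at 0.84 to 1.04 and Klf6 at 0.56 to 0.63 on 3 arrays, while the orange triangles of fMLP KO replicate 2 lie below 0 for 6 genes and at 0.47 for Klf7.

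The other 5 genes did not pass in either fit. Klf10, first described as an early gene induced by TGF-beta, was at 9.35 and 9.49 on unstimulated replicate 3, at 9.56 and 9.62 in wild type and 9.59 in knockout cells on 3 fMLP arrays, and at 8.81 on fMLP knockout replicate 2. Klf3 encodes a repressor that works with the corepressor CtBP. It was at 11.10 and 11.08 without fMLP, at 11.31, 11.21 and 11.21 on the same 3 arrays, and at 10.36 on fMLP knockout replicate 2. For both genes the 3 arrays lay above the unstimulated pair, by means of 0.17 for Klf10 and 0.15 for Klf3.

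In all, 4 of 7 genes (Klf2, Klf3, Klf6 and Klf10) had these 3 arrays above both unstimulated arrays, and 0 had them below. Over all tested genes the shares were 26.8% above and 28.7% below, so that such a separation alone is common here. With all 4 fMLP arrays the count above was 0 of 7, against 11.9% of all genes. The fitted differences without fMLP knockout replicate 2 were 0.17 for Klf10 (95% interval -0.06 to 0.40) and 0.15 for Klf3 (-0.17 to 0.46).

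Klf4 encodes a factor of monocyte differentiation and of reprogramming to pluripotency. Its log2 signal was 8.86 and 8.88 without fMLP, 9.03 and 8.81 on the wild type fMLP arrays, and 9.09 and 8.39 on the knockout fMLP arrays, so the groups overlapped. Klf13 encodes a factor known for driving the late expression of the chemokine Ccl5 in T cells. It was at 10.67 and 10.63 without fMLP, at 10.58 and 10.64 in wild type and 10.70 and 10.43 in knockout cells with fMLP, and overlapped too. Leaving out fMLP knockout replicate 2, the fitted difference was 0.13 for Klf4 (95% interval -0.13 to 0.39) and 0.0046 for Klf13 (-0.20 to 0.21). The upper end for Klf13 lies below the lower end of 0.28 for Klf6.

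Klf7 is known for its role in neurons and axon growth. Its log2 signal was 11.01 and 11.04 without fMLP, 11.02 and 11.19 on the wild type fMLP arrays and 11.51 on fMLP knockout replicate 2, while fMLP knockout replicate 1 was at -0.04 from unstimulated knockout cells. The highest value of the gene thus lay on the array that carried the neuron markers, 0.44 above the mean of the other fMLP arrays. Without that array the fitted difference was 0.03 (95% interval -0.19 to 0.24). Whether the neuron transcripts take part in the Klf7 signal of that array was not tested.

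**Figure D3:**
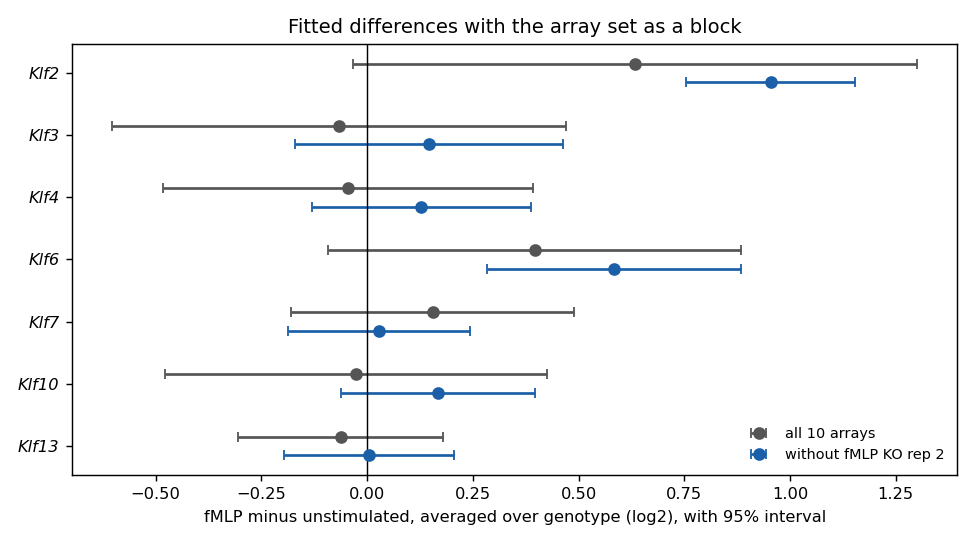
Fitted difference between fMLP and unstimulated cells averaged over genotype (log2, horizontal axis) for the 7 genes, with the array set as a block; bars are 95% intervals, grey for all 10 arrays and blue without fMLP KO replicate 2. The blue intervals of Klf2 (0.75 to 1.15) and Klf6 (0.28 to 0.88) lie above 0, and those of the other genes include it.

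On fMLP knockout replicate 2, 6 of the 7 genes were lower than on all other fMLP arrays and 1, Klf7, was higher. Over all tested genes 52.7% were lower and 32.4% higher there. Relative to the mean of the other 3 arrays the array stood at -1.19 for Klf2, -0.88 for Klf3, -0.82 for Klf6, -0.78 for Klf10, -0.58 for Klf4 and -0.21 for Klf13 on the log2 scale. Differences below -0.5 were found for 5 of the 7 genes and for 26.0% of all tested genes. The neutrophil markers also had their lowest mean of set 2 there, 12.91 against 13.39 to 13.50, and their part in these values was not tested.

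Loss of Lcn2 left the 7 genes without a difference that passed. Between unstimulated knockout and wild type cells, limma called 0 of 7 genes (0 at an unadjusted p below 0.05), where 0.00711% of all genes were called, which is Lcn2 itself. The fitted knockout differences were -0.13 to 0.03 on the log2 scale, and the widest 95% intervals over the genes reached from -0.74 to 0.52. With fMLP knockout replicate 2 left out the intervals reached from -0.41 to 0.26. Within array set 1 the knockout mean minus the wild type mean was -0.18 for Klf3, -0.15 for Klf2, -0.13 for Klf6 and 0.03 for Klf4. Within unstimulated replicate 3 the differences were -0.08 for Klf6 to 0.14 for Klf10. By same-numbered pairs, Klf2 was at -0.13, -0.18 and -0.02, and Klf2, Klf3, Klf6 and Klf13 (4 of 7) were lower in the knockout in all 3 pairs, as were 12.1% of all tested genes. With the replicate number as a block limma still called 0 of 7.

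With fMLP, limma called 0 of 7 genes between the genotypes (0 at an unadjusted p below 0.05; 0.00711% of all genes). The knockout differences were -0.50 for Klf2, -0.48 for Klf3 and -0.47 for Klf6 (limma adjusted p = 0.437 for Klf2 and 0.416 for the other 2). Replicate 1 alone stood at 0.14, -0.05 and -0.10 from the wild type mean for these genes, and replicate 2 at -1.14, -0.90 and -0.85. Without replicate 2 the differences ranged from -0.10 to 0.17. The fMLP responses of the genotypes were also compared directly. For this difference of responses limma called 0 of 7 members and 0 of all genes (0% called; 258 genes and 0 members at an unadjusted p below 0.05). For Klf2 it was -0.39 (95% interval -1.39 to 0.60) with all arrays and 0.25 (-0.07 to 0.56) without fMLP knockout replicate 2, and both intervals include 0.

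On the unstimulated arrays, all 7 genes were higher on replicate 3 than on all 4 arrays of set 1, in both genotypes, which held for 47.6% of all tested genes. On set 1 the log2 signal was 9.65 to 9.84 for Klf2, 9.06 to 9.62 for Klf3, 7.92 to 8.23 for Klf4, 9.55 to 10.03 for Klf6, 9.03 to 9.17 for Klf7, 8.12 to 8.33 for Klf10 and 9.12 to 9.27 for Klf13. The difference between the means was 1.94 for Klf7, 1.81 for Klf6, 1.75 for Klf3, 1.42 for Klf13, 1.23 for Klf10, 0.91 for Klf2 and 0.81 for Klf4, against a median of 0.09 over all tested genes. A fit that ignored the sets put all 7 genes higher after fMLP, by 0.50 to 1.60 on the log2 scale. Limma called 0 of 7 there, where 0.0711% of all genes were called, all of them higher. At an unadjusted limma p below 0.05 stood 3 of the 7 genes, and 5031 of all 14070 tested genes.

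By the rule on span, likeness was read for Klf2, the 1 gene whose values spread by more than 1 over set 2. After each gene was centred over these 6 arrays, the 3 genes with the smallest root mean square difference from Klf2 were Il10ra (0.0264), the receptor chain for interleukin 10, Il1r2 (0.0741), the decoy receptor of interleukin 1, and Dok3 (0.0933), an adaptor that dampens myeloid signalling. Il10ra was at 9.27 and 9.26 without fMLP, at 10.21 and 10.19 in wild type and 10.28 in knockout cells on 3 fMLP arrays, and at 9.03 on fMLP knockout replicate 2. Without that array Il10ra rose by 0.98 and Dok3 by 0.78 (limma adjusted p = 0.00131 and 0.00130), and Il1r2 stood at 0.94 (limma adjusted p = 0.0897). The likeness was read over the same arrays and holds the drop on fMLP knockout replicate 2. Since the 3 genes were picked for it, their rise and its p-values follow largely from that choice. They are no separate evidence on Klf2.

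The marker means of T and NK cells and of B cells were higher on the same 3 fMLP arrays as Klf2. On unstimulated replicate 3, Klf2 was at 10.68 in wild type and 10.66 in knockout cells, while both marker means were higher in the knockout. In bulk samples, more cells of a type and more RNA per cell cannot be told apart. The mean of 13 T and NK cell markers was 8.18 and 8.38 on unstimulated replicate 3, 8.84 to 9.18 on 3 fMLP arrays and 8.35 on fMLP knockout replicate 2. Of these markers 9 were tested, with 0 called with all arrays and 6 higher without fMLP knockout replicate 2, where 6.36% of all genes were called higher. Among the 6 were Ccr7, the lymph node homing receptor, at 1.93, and Cd3g and Cd3e of the T cell receptor complex at 1.69 and 1.13. Nkg7, a granule gene of NK and cytotoxic T cells, stood at -0.25 in that fit and did not pass. Cd247 stood at 0.26 and Cd4 at 0.10 there. Cd3d, Klrb1c, Ncr1 and Gzma did not pass the filter on low signal. The mean of 10 B cell markers was 10.35 and 10.74 without fMLP, 11.06 to 11.38 on the 3 arrays and 10.18 on fMLP knockout replicate 2, and 8 of 10 were called higher without that array, such as Cd79b at 1.05. Of the other B cell markers, Ighm stood at -0.02 and Ebf1 at 0.48 in that fit. The part of lymphocytes in the Klf2 difference was not tested.

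The mean of 6 erythroid markers also lay higher on the same arrays, at 9.99 and 10.03 without fMLP, 10.19 to 10.62 on 3 fMLP arrays and 9.54 on fMLP knockout replicate 2. With all arrays 3 of 6 erythroid markers stood above 0. With fMLP knockout replicate 2 left out 6 of 6 did, where the median of all tested genes was -0.01. The differences were then 0.91 for Klf1, 0.70 for Gata1, 0.26 for Slc4a1, 0.25 for Epor, 0.19 for Alas2 and 0.05 for Tfrc. On wild type fMLP replicate 2, Alas2 (10.37) and Slc4a1 (11.81) lay below both unstimulated replicate 3 arrays. The part of erythroid cells in the Klf2 difference was not tested.

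Markers of eosinophils and monocytes were lower on the fMLP arrays. Of 8 tested eosinophil, basophil and mast cell markers, 6 fell with all arrays, where 0.192% of all genes were called lower, among them Epx, eosinophil peroxidase (-3.31, limma adjusted p = 0.00131). Of 9 monocyte and macrophage markers 3 fell, Ccr2 (-2.08), Fn1 (-2.12) and F13a1 (-1.74). The counts lower were 6 and 5 when fMLP knockout replicate 2 was left out, where 3.79% of all genes were called lower. Of 13 neutrophil markers 0 were called in either fit, with a median of -0.20 with all arrays and -0.03 without fMLP knockout replicate 2. Of 6 erythroid markers, 7 endothelial and stromal markers and 9 tested neuron markers 0 were called with all arrays, although 9 of 9 neuron markers stood above 0 with a median of 0.88. In the fit that left out fMLP knockout replicate 2 the endothelial and stromal count was 1 higher (Pecam1) and the neuron count 0, with a neuron median of -0.11.

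**Figure D4:**
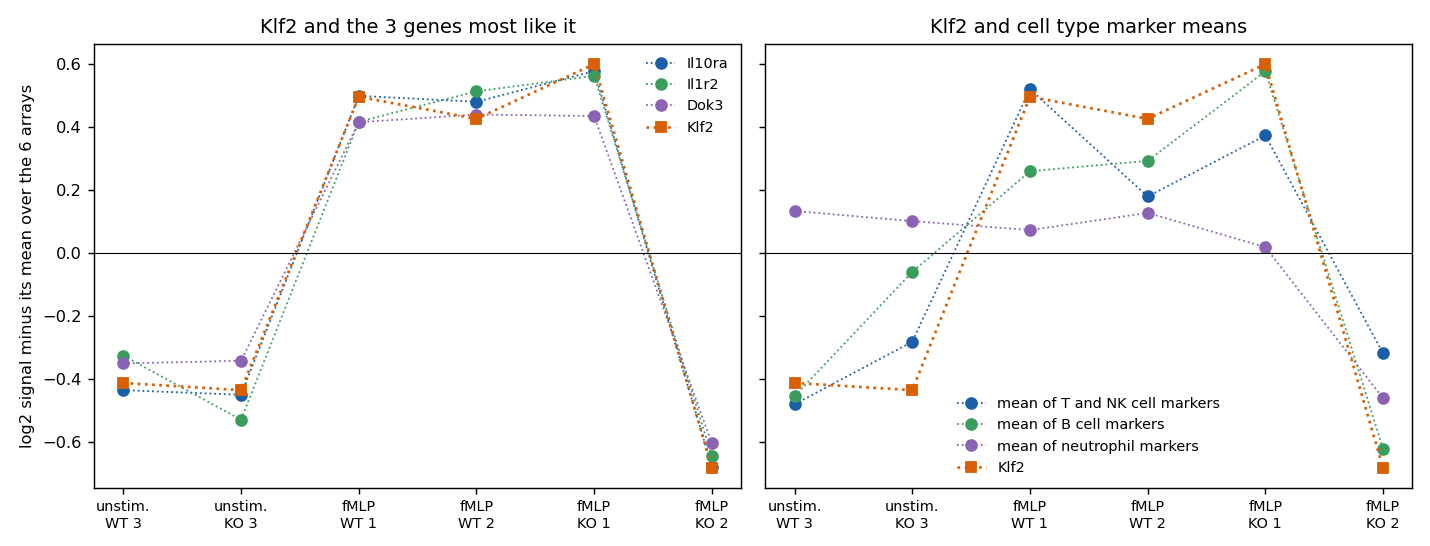
Log2 signal minus its mean over the 6 arrays of set 2 (vertical axis) for each of those arrays; left, Klf2 with Il10ra, Il1r2 and Dok3; right, Klf2 with the means of T and NK cell, B cell and neutrophil markers. Dotted lines only join the points of 1 series; Klf2 and the lymphocyte means are high on the same 3 fMLP arrays and low on fMLP KO replicate 2, and the neutrophil mean is lowest on that array.

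The wider family and its partners were read from 6 lists of genes. Tested were 11 other Klf and Sp genes, 13 cofactors, 10 turnover factors and 16 genes upstream of Klf2. The lists of TGF-beta signalling and of targets had 11 and 19 tested genes, with Klf11 on the former and among the other Klf genes. With all arrays limma called 0 members of any list for fMLP averaged over genotype, where 0.341% of all genes were called and the median of all genes was -0.02. Leaving out fMLP knockout replicate 2 gave 14 called, where 10.1% of all genes were called (6.36% higher and 3.79% lower), and the median of all genes was -0.01. The 11 tested of 18 other Klf and Sp genes on the array had a median of 0.05 with all arrays and -0.03 without that array. Klf9, a factor induced by glucocorticoids, was at 8.59 and 8.64 without fMLP, at 9.02 to 9.23 on 3 fMLP arrays and at 9.70 on fMLP knockout replicate 2. Its difference was 0.66 (SE 0.16, limma adjusted p = 0.128) with all arrays, and without fMLP knockout replicate 2 it rose by 0.54 (limma adjusted p = 0.0196). Sp1, a general GC box factor, fell by 0.35 without that array (limma adjusted p = 0.0364), while Sp3 (-0.35) and Sp4 (-0.29) did not pass. Klf1, the erythroid factor, which was singled out after its values were seen, rose by 0.91 there (limma adjusted p = 0.00401).

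Upstream of Klf2, 16 genes of the ERK5 and MEF2 route, the cerebral cavernous malformation complex and the FOXO factors were tested. Their median was 0.13 with all arrays and 0.21 without fMLP knockout replicate 2. In the latter fit 2 of 16 were called higher and 0 lower, against 6.36% and 3.79% of all genes. Mef2d, whose product binds MEF2 sites, rose by 0.55 (limma adjusted p = 0.0116), and Foxo1, which drives Klf2 in T cells, rose by 0.88 (limma adjusted p = 0.00127). Krit1 (-0.38) and Mef2c (0.45) did not pass. Mef2d stood at 10.84 and 11.03 without fMLP and at 11.33 to 11.58 on all 4 fMLP arrays. For 11.9% of all tested genes the 4 fMLP arrays likewise lay above both unstimulated replicate 3 arrays.

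Known targets of the family gave 0 of 19 called with all arrays and 5 of 19 called higher without fMLP knockout replicate 2, where 6.36% of all genes were called higher, with medians of 0.08 and 0.21. S1pr1, the sphingosine 1-phosphate receptor driven by KLF2 in lymphocytes, was at 8.78 and 9.16 without fMLP, at 10.43, 9.91 and 10.29 on 3 fMLP arrays and at 9.29 on fMLP knockout replicate 2. Without that array S1pr1 rose by 1.26 (limma adjusted p = 0.00441), and Thbd, the thrombomodulin gene, by 0.76 (limma adjusted p = 0.0120). Ccl5, the target of KLF13, rose by 0.90 (limma adjusted p = 0.00192), and the metallothionein gene Mt2 by 1.31 (limma adjusted p = 0.0150). Hmox1, which encodes haem oxygenase and is named here after its values were seen, rose by 0.57. S1pr1 and Ccl5 are also expressed by T cells, whose markers were higher on the same arrays.

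Among 11 tested genes of TGF-beta signalling, the route for which Klf10 is known, 2 were called higher and 0 lower without fMLP knockout replicate 2 (6.36% and 3.79% of all genes), with medians of 0.08 with all arrays and 0.14 without that array. For 11.9% of all tested genes all 4 fMLP arrays lay above both unstimulated replicate 3 arrays. Among these was Tgif1, a repressor of TGF-beta signalling, at 8.43 and 8.54 without fMLP and at 9.29 to 10.42 with it. Its difference was 1.51 (SE 0.26, limma adjusted p = 0.0672) with all arrays, and it rose by 1.80 (limma adjusted p = 6.08e-06) without fMLP knockout replicate 2. Tgfbr2, a receptor of TGF-beta named after its values were seen, rose by 0.36. Tgfbr1 (-0.39), Smad4 (-0.09) and Ski (0.08) did not pass.

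Among cofactors and turnover factors, 1 of 13 and 1 of 10 were called without fMLP knockout replicate 2, near the share of 10.1% of all genes. Of 13 cofactors 0 were called with all arrays (median 0.04). In the fit that left out fMLP knockout replicate 2 (median -0.04) Ep300, the acetyltransferase p300, fell by 0.62 (limma adjusted p = 0.0240), and Crebbp (-0.29), Hdac2 (-0.32) and Ctbp1 (0.11) did not pass. Of 10 ubiquitin ligases and other turnover factors 0 were called with all arrays (median -0.07). Without that array (median -0.14) Smurf2 fell by 0.45 (limma adjusted p = 0.0180), and Usp7 (-0.41), Smurf1 (0.21) and Itch (-0.23) did not pass.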

How the data were processed

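The deposited values are log2 RMA signals per probe set, which the authors computed with Affymetrix Expression Console, per the submitters' processing notes. No source used here states the log base, which was read from the range of values. RMA corrects background, gives the arrays of a run like distributions and combines probes into 1 value. The sources do not say how many runs were made, and arrays have no read depth, so that their number limits the precision. Of 35556 probe sets, 21789 name 1 gene, 1621 several and 12146 none in the array annotation. For each gene the probe set with the highest mean was used. Testing required 2 or more arrays above 8.18, the overall median signal, which left 14070 genes. Klf4 and Klf10 had arrays of set 1 below that level.

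Limma version 3.58.1 in R version 4.3.3 fitted all 10 arrays with a coefficient per group and the array set (interquartile range below or above 2) as a block, with 5 residual degrees of freedom. Two-sided p-values from all 14070 genes were adjusted together (Benjamini-Hochberg), with calls below 0.05; a difference below 0 means lower with fMLP or in the knockout. Under this block the genotype-averaged fMLP effect sets the fMLP arrays against unstimulated replicate 3, while the effect in 1 genotype also draws on set 1. The fit was tested on simulated data with independent noise at the spread found without fMLP knockout replicate 2. Those data held no array that stands apart, so they do not show how the fit does with such an array. Genes named were the 7 members, Lcn2, up to 4 genes per pathway list with the smallest p (all called ones if any), the 3 genes most like a member whose values span more than 1 over set 2, and cell type markers that moved with a result. The members, lists, block and alternatives were chosen with earlier results of these data known. Alternatives were no block, set 2 only, the replicate number as a block, other filters (none, or the 70th percentile) and normalizations, probe set means, array weights, robust moderation with a variance trend, and leaving out each array.

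Among unstimulated arrays, deviations from the group mean correlated at 0.949, 0.929 and 0.988 between the genotypes for replicates 1, 2 and 3, so the numbers pair these arrays (0.464 within set 1). This pairing comes from the data and holds the array sets.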

Additional observations from a re-analysis of the deposited data

Results flagged for a closer look

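Among the 4 fMLP arrays taken over both genotypes, knockout replicate 2 lay far below the other 3 for 4 of the 7 genes. Its gap to the nearest array, divided by the range of the 4, was 0.864 for Klf2, 0.892 for Klf3, 0.848 for Klf6 and 0.922 for Klf10, each above Dixon's 95% critical value for 4 samples. Chance gives such a value in about 1 in 20 groups, and the 7 genes share the same arrays. Of all tested genes, 52.7% were lower on this array than on all other fMLP arrays and 32.4% were higher. The share of all genes above the critical value was not computed. For Klf4, Klf7 and Klf13 the array was also the extreme one, with values of 0.598, 0.642 and 0.550. Neuron markers were high on this array, and their part in these values was not tested.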

How the results depend on the processing

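The count of called members for fMLP averaged over genotype was 0 with all arrays. It was 1 (Klf2) with array weights, where 5.44% of all genes were called, 2 (Klf2 and Klf6) within set 2 without fMLP knockout replicate 2 (22.2%), and 0 to 2 when each array was left out, with 1 (Klf2) without fMLP knockout replicate 1 (28.8%) and 2 without replicate 2 (10.1%). In wild type these counts were 2 (26.5%), 2 (10.8%) and 0 to 1, and in knockout cells 0, 2 (6.67%) and 0 to 4. Without fMLP knockout replicate 1, only replicate 2 is left in that group, assumed to vary like the others; then 6 members were called between genotypes with fMLP, beside 45.5% of all genes, and 5 for the difference of responses, beside 35% (ranges 0 to 6 and 0 to 5). The 4 calls in knockout cells were then Klf3, Klf4, Klf7 and Klf10, beside 38.6%. For the 6 pathway lists, with 0 called, the counts were 1 with the stricter filter, 1 with the variance trend, 8 with array weights, 34 within set 2 without fMLP knockout replicate 2, 1 without block or that array, and 0 to 29 when each array was left out. Of all genes, 0.728% were called with the stricter filter, 0.547% with the variance trend and 5.44% with array weights. After quantile normalization, 2 genes, Klf2 and Klf6, had all 4 fMLP arrays above unstimulated replicate 3. As deposited it was 0, beside 11.9% of all genes, and the share after quantile normalization was not computed. After it fMLP knockout replicate 2 was at 10.36 for Klf2, against 10.32 and 10.33 on unstimulated replicate 3. The settings that combine set 2 or no block with leaving out fMLP knockout replicate 2, and the replicate block with the array set, were added after seeing the data.

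The replicate block alone called 7 of 7 members for fMLP averaged over genotype, in wild type and in knockout cells, with 73 listed genes; it called 83.6%, 80.9% and 74.2% of all genes. It compares fMLP arrays with unstimulated replicates 1 and 2, thus set 2 with set 1. Same-numbered fMLP and unstimulated arrays did not deviate together (correlations -0.41 to 0.39). With the array set added to the replicate block the members' count was 0. Between genotypes, with and without fMLP, the replicate block called 0 members, as without it.

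Some directions turned. Klf3, Klf4, Klf10 and Klf13 (-0.07, -0.04, -0.03 and -0.06) were at 1.10, 0.50, 0.79 and 0.89 without the set block, 1.69, 0.77, 1.21 and 1.36 with the replicate block, 0.15, 0.13, 0.17 and 0.0046 within set 2 without fMLP knockout replicate 2, and 1.32, 0.67, 0.99 and 0.95 without block or that array. Klf3 was at 0.0117 after quantile normalization. Leaving out each array gave -0.28 to 0.15, -0.22 to 0.13, -0.22 to 0.17 and -0.13 to 0.0046. In knockout cells Klf2 (0.44 with all arrays) ranged from -0.20 to 1.08 and Klf6 from -0.16 to 0.59, and between unstimulated genotypes Klf6 from -0.22 to 0.0050. For Klf2 the knockout difference with fMLP turned from -0.50 to 0.14, and the difference of responses from -0.39 to 0.25, without fMLP knockout replicate 2. Klf2, Klf6 and Klf7 stayed above 0 for fMLP averaged over genotype under each alternative run. In many of these runs the sign could not change. Other filters, other moderation, array weights and leaving out an array of set 1 return the same averaged difference. Klf7 came down to 0.03 without fMLP knockout replicate 2, the array with the neuron markers.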
